A study of Mus musculus with 12 samples.

Results

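The comparison described here set 1 array of sutured cornea from a Dscr-1-/- mouse (Dscr1KO below) against 1 array of sutured cornea from a wild-type mouse (WT), both taken on day 5 after suturing. These are 2 of the 12 expression arrays of the series, chosen by their titles alone. All mice were labelled C57BL/6J and the tissue was whole cornea, so epithelium, stroma and endothelium were measured together. The other sutured corneas were 1 WT and 1 Dscr-1 Tg (transgenic) array on day 7. The 8 intact arrays held 2 biological replicates each of WT, ApoE-/-, Dscr-1-/- and Dscr-1-/- ApoE-/- double null corneas. The sources used here do not give age, sex, the promoter of the transgene or the number of corneas behind a sutured array. One label of the second intact Dscr1KO replicate names the genotype ApoE-/-, while its title and genotype field name Dscr1KO.

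Dscr1, now named Rcan1, encodes a regulator of calcineurin, the calcium-dependent phosphatase that sends NFAT transcription factors into the nucleus. Rcan1 is itself induced by calcineurin and NFAT signalling, for example in endothelial cells exposed to VEGF, and acts as a feedback brake on the pathway. The healthy cornea has no blood vessels. Sutures placed in it provoke an inflammatory reaction, with entry of neutrophils and macrophages, release of angiogenic factors, and growth of blood and lymphatic vessels from the limbus at the corneal edge into the stroma. Wounded epithelium meanwhile switches on stress keratins and barrier proteins of the kind made by skin. The comparison asks how these responses look at one time point in a cornea without the Dscr1 gene.

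With 1 array for each genotype the difference between them has no replicate check, and no p-value is given anywhere below. Differences are Dscr1KO minus WT on the log2(intensity + 3.6) scale (3.6 being the 20th percentile over the whole table), so that the difference of a gene near background is understated. A difference of 1.0, or 2-fold on that scale, was counted. As a yardstick for the spread between corneas, each gene's difference was set beside its gap between replicates 1 and 2 in each of the 4 intact groups, and a gene is called beyond the replicate gaps where its difference exceeded all 4. These gaps come from intact, not sutured, corneas, so the spread between sutured corneas of one genotype was not measured. The Dscr1KO array was also placed against the range of the other 3 sutured arrays.

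The 2 arrays were alike in overall signal. The median intensity over all probe sets was 15.6 in WT and 17.3 in Dscr1KO on day 5, within the range of 15.6 to 21.1 over all 12 arrays. The ratio of the 3′ to the 5′ probe set of Gapdh, which grows as RNA is degraded, was 1.11 in WT and 1.30 in Dscr1KO, against up to 2.91 in the second intact Dscr1KO replicate. Xist, the transcript that silences an X chromosome in females, read 9.6 in WT and 6.0 in Dscr1KO by its brightest probe set. Corneal identity held in both corneas: Krt12, the keratin of corneal epithelium, read 6114.5 in WT and 6504.5 in Dscr1KO, and Kera, the stromal proteoglycan keratocan, read 3544.6 and 4402.9. Defining markers of tissues that could be carried along at dissection stood near 0 for red blood cells (Hba-a1, 1.1 and 0.2), goblet cells (Muc5ac, 2.8 and 1.3) and fat (Adipoq, 1.9 and 2.6). Markers of pigment cells did not, nor did Krt4 and Krt13, keratins of conjunctiva, and these are given beside the results they accompany. Of the lens genes, Cryaa read 94.0 in WT and 21.2 in Dscr1KO, and Crygd 1.7 and 4.0.

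Of 12711 genes kept, 524 (4.12%) were at least 2-fold higher and 247 (1.94%) at least 2-fold lower in Dscr1KO than in WT. With the medians of the 2 arrays set equal the split was more even, at 390 higher and 319 lower. Both directions together gave 771 genes (6.07%), more than the 214 (1.68%) and 377 (2.97%) found between intact replicates of WT and of ApoE-/- corneas, and fewer than the 1139 (8.96%) and 1638 (12.9%) found between replicates of the double null and the Dscr1KO. The pairs with more genes apart than 771 are not plain replicates: one label of the second intact Dscr1KO replicate names another genotype, and the double null replicates differed in Xist (4256.9 and 19.6) and in Gnat1, a photoreceptor gene (1200.1 and 4.1). Nor is the ApoE-/- pair, with fewer genes apart, a plain one: Apoe read 849.3 in its first replicate and 7.5 in its second. A smaller set of 335 genes higher (2.64%) and 152 lower (1.20%) was beyond all 4 replicate gaps, and 412 and 219 were beyond the gaps of the WT and double null pairs, without the pairs holding a library whose label or Apoe level is in doubt. Beyond the gaps of the WT pair alone there were 507 and 241. The Dscr1KO array was above the other 3 sutured arrays for 423 of the genes called higher (3.33% of all genes) and below them for 208 of those called lower (1.64%). List counts below are to be read beside the shares of all genes, 4.12% higher and 1.94% lower.

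Named here are the 15 genes furthest out on each side among those beyond all 4 replicate gaps. Their brighter array was also above the 60th percentile of intensities (32.9). Some genes within a replicate gap, such as Sprr1b, Krt16, Col3a1 and Cd36, differed by more than the last of the 15 on their side. Among the 15 highest were Lpl, which frees fatty acids from lipoproteins at the vessel wall, the vascular genes Mcam, Clec14a, Mmrn1, Mmrn2 and Tagln, and the interferon-induced genes Rsad2, Cmpk2 and Ifi27l2a. Among the 15 lowest were Sprr2d, Sprr2f and Sprr2h, which encode small proline-rich barrier proteins, the serum amyloid genes Saa1 and Saa2, the calprotectin genes S100a8 and S100a9, and the cytokine genes Csf3 and Il1f6. The lower genes were further from 0 than the higher ones: the 15 lowest ran from -6.84 to -2.61 and the 15 highest from 2.25 to 3.21. Of these 30 genes, 10 had several probe sets, and in all of them every probe set had the same direction.

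**Figure D1:**
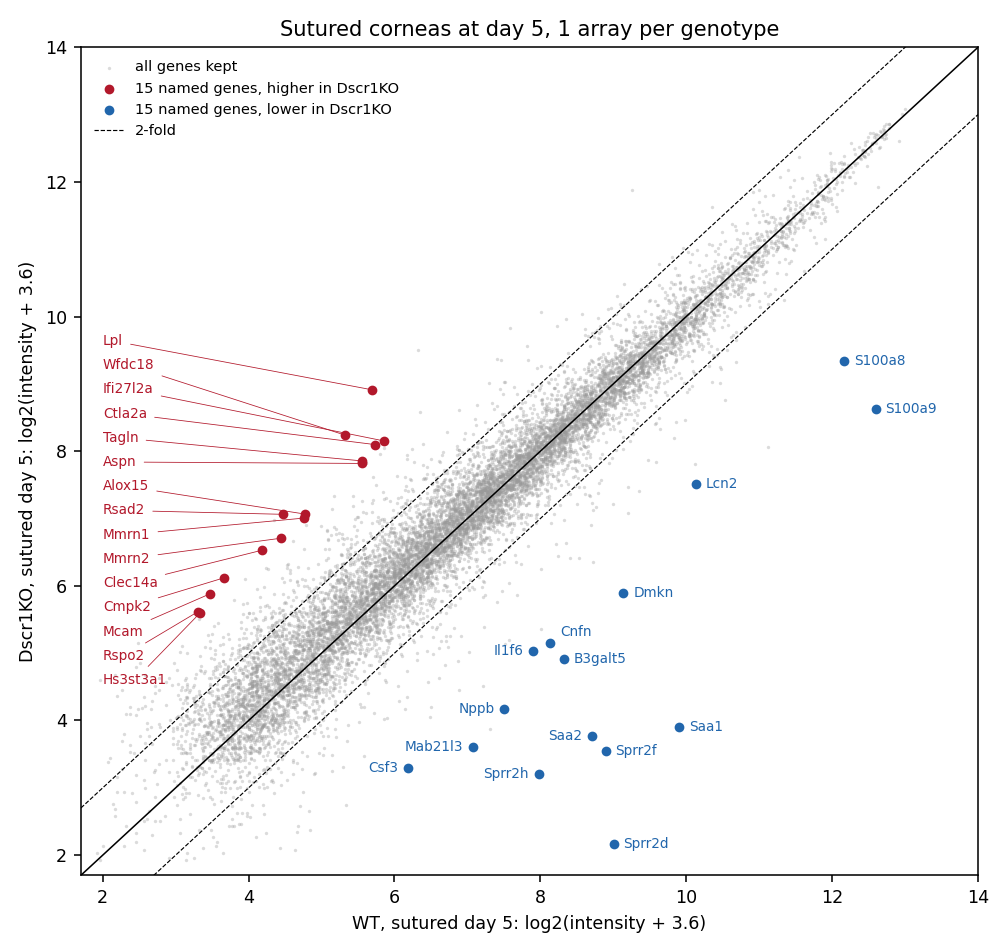
Level of each of 12711 genes on the WT array (horizontal axis) and on the Dscr1KO array (vertical axis) at day 5 after suturing, as log2(intensity + 3.6), with 1 point per gene, the line of equality and dashed lines at 2-fold. The 15 named genes on each side are coloured, and those lower in Dscr1KO reach a difference of -6.84 while those higher reach 3.21.

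Rcan1, the gene named in the genotype, was not called at 2-fold by its brighter probe set. That probe set read 663.6 in WT and 479.1 in Dscr1KO on day 5, 579.7 in WT and 548.3 in Dscr1 Tg at day 7, a difference of -0.47 at day 5. The dimmer probe set read 40.6 in WT and 13.1 in Dscr1KO on day 5 and 53.4 and 66.7 in WT and Tg at day 7, a difference of -1.40. On both probe sets the Dscr1KO array was the lowest of the 4 sutured arrays. Signal thus remained on the brighter probe set in the cornea labelled as null. The sources used here do not give the position of the probe sets with respect to the deleted part of the gene. The remaining signal on its own thus does not check the genotype. Across all arrays, the brighter probe set was lower in every array labelled Dscr1-null (331.7 to 479.1) than in every other array (548.3 to 668.2). The second intact Dscr1KO replicate read 335.9. On the dimmer probe set the intact Dscr1KO arrays read 13.3 and 10.5. There the ranges overlapped, since the first double null replicate lay above the second ApoE-/- replicate (18.5). The brighter probe set's difference was smaller than the largest gap between intact replicates, 0.50. That gap came from the intact Dscr1KO pair, which holds the replicate with a label in doubt. The same difference was larger than the gaps of the WT, ApoE-/- and double null pairs, 0.04, 0.20 and 0.19. The dimmer probe set's difference was larger than the gap of every intact pair, the widest being ApoE-/- at 32.7 and 18.5. Apoe, which encodes the lipid-carrying apolipoprotein E and was not targeted in these mice, read 1124.2 in WT and 975.2 in Dscr1KO, a difference of -0.20.

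Calcineurin, its other regulators and the NFAT factors differed little. None of 11 genes of a list of Rcan regulators and calcineurin subunits, and none of 14 NFAT factors and kinases, was 2-fold apart in either direction. The catalytic subunit Ppp3ca read 752.5 and 793.1 and the regulatory subunit Ppp3r1 771.0 and 776.2 in WT and Dscr1KO. The difference nearest to 2-fold among the factors was that of Nfatc1, which read 46.4 in WT and 83.3 in Dscr1KO, a difference of 0.80, and was beyond the replicate gaps. Of 12 known NFAT target genes, 2 were at least 2-fold lower and none higher. Those were the cytokine Il6, at 254.2 and 37.4, and Ptgs2, the inducible cyclooxygenase, at 1419.2 and 593.5. Neither was beyond all replicate gaps, and 1 was beyond those of the WT and double null pairs. The targets Vcam1 and Tnf lay the other way, with differences of 0.77 and 0.88.

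Genes of blood vessel endothelium were higher in the Dscr1KO cornea. Of 25 kept, 25 had a positive difference, 17 (68.0%) were at least 2-fold higher against 4.12% of all genes, and 16 were also beyond the replicate gaps. The list's median difference was 1.44, against 0.05 over all genes, while its median between intact replicates shifted by at most 0.33. In bulk tissue, more cells of a type and more RNA in each cell cannot be told apart.

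Among the junction and surface proteins of endothelium, Cdh5, the cadherin that joins endothelial cells, read 23.9 in WT and 115.6 in Dscr1KO on day 5, and 59.6 in WT and 25.9 in Tg at day 7, a day 5 difference of 2.12. Clec14a, an endothelial lectin, read 14.5 and 88.7 at day 5 and 30.5 and 18.7 at day 7, a difference of 2.35 against a largest replicate gap of 0.23. For both genes the Dscr1KO cornea was the highest sutured cornea and the WT cornea of day 5 the lowest. Mmrn2, a matrix protein that endothelial cells deposit and that binds Clec14a, read 18.1 and 100.9 at day 5 and 50.3 and 10.5 at day 7, a difference of 2.27. Aplnr, the apelin receptor of sprouting vessels, read 54.6 and 261.9 at day 5 and 274.3 and 82.6 at day 7. Its level in Dscr1KO on day 5 was thus close to, and a little below, that of WT at day 7, and Sox17, a transcription factor of arterial endothelium, showed the same order at 4.9 and 30.7 on day 5 and 37.2 in WT on day 7. Pecam1, Plvap, Emcn, Vwf and Egfl7 had differences of 1.57, 1.60, 1.84, 1.76 and 2.06. Not all vascular genes stood apart: the tip-cell genes Apln, Angpt2 and Dll4 differed by 0.06, 0.21 and 0.29, and the nitric oxide synthase Nos3 by 0.60, within the replicate gaps.

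Mural cells, the pericytes and smooth muscle that wrap vessels, gave the same picture. Of 12 genes, 9 were at least 2-fold higher, against 4.12% of all genes, and none lower. Beyond the replicate gaps were 8 (list median 1.24, largest replicate shift 0.55). Rgs5, a pericyte regulator of G-protein signalling, read 188.4 in WT and 907.4 in Dscr1KO on day 5 and 824.8 in WT and 260.5 in Tg at day 7, a difference of 2.25. Mcam, an adhesion molecule shared by mural cells and endothelium, read 7.5 and 55.4 at day 5 and 58.6 and 35.5 at day 7, a difference of 2.41. In both genes the WT cornea of day 5 was the lowest of the sutured corneas, and the Dscr1KO cornea of day 5 lay beside the WT cornea of day 7. The contractile genes Tagln and Acta2 differed by 2.29 and 1.64, the second within the gap between intact replicates, and Pdgfrb, the receptor that recruits pericytes, by 1.10. Notch3 and Myh11 were not higher, at -0.08 and -0.61.

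Lymphatic genes divided. Of 9 kept, 4 were at least 2-fold higher, against 4.12% of all genes, and none lower. The median was 0.84 against a largest replicate shift of 0.60. Mmrn1 read 23.4 and 125.0 at day 5 and 59.9 and 16.7 at day 7, a difference of 2.25, and Flt4, the receptor for VEGF-C, read 23.7 and 64.7 at day 5, a difference of 1.32. Lyve1, the hyaluronan receptor of lymphatic endothelium and some macrophages, read 63.9 and 117.5, a difference of 0.84 within the replicate gaps. Pdpn, which is also made by epithelial cells, differed by -0.29. The lymphatic marker Prox1, too dim to be kept, read 6.3 and 5.3, a difference of -0.15.

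The angiogenic ligands did not follow their receptors as a group: of 15 kept, 3 were at least 2-fold higher, 2 lower, and the median was 0.28. Vegfa, the main growth factor for blood vessels, was lower in Dscr1KO, at 144.4 in WT and 63.6 in Dscr1KO on day 5 and 86.1 and 64.0 in WT and Tg on day 7, a difference of -1.14. Adm, which encodes the vasoactive peptide adrenomedullin, read 431.1 and 140.1 on day 5 and 219.5 and 216.2 on day 7, a difference of -1.60. For both ligands the WT cornea of day 5 was the highest and the Dscr1KO cornea the lowest of the 4 sutured corneas. The lymphatic growth factors lay the other way, Vegfc at 38.8 and 94.4 and Vegfd at 16.2 and 37.4, differences of 1.21 and 1.05. The vessel-stabilising ligand Angpt1 read 23.1 in WT and 51.0 in Dscr1KO on day 5 and 13.2 and 15.6 in WT and Tg on day 7. Among 13 genes described as inhibitors of angiogenesis, 5 were at least 2-fold higher and none lower. Of these, Tnmd, the membrane protein tenomodulin, read 114.1 and 386.6 (1.73), Flt1, a VEGF receptor with a decoy form, read 10.8 and 27.3 (1.10), and Thbs2, which encodes thrombospondin 2, read 661.9 and 1362.4 (1.04).

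Pigment cell genes moved with the vascular genes. Of 11 genes of pigment cells and iris, 7 (63.6%) were at least 2-fold higher, all 7 beyond the replicate gaps, and none was lower (median 1.33, largest replicate shift 0.64). Tyrp1, an enzyme of melanin synthesis, read 165.3 in WT and 657.1 in Dscr1KO on day 5 and 206.8 and 48.6 in WT and Tg at day 7, and Dct, another, read 172.3 and 649.3 and then 336.8 and 70.9. The summed intensity of the 12 pigment genes measured was 2254.9 in the Dscr1KO cornea against 539.9 to 1130.2 in the other 3 sutured corneas. The summed intensity of 17 genes of conjunctiva and goblet cells was 16563.9 in the Dscr1KO cornea against 11520.5 to 12593.1, much of it from Krt4 (2983.2 in WT and 5305.7 in Dscr1KO on day 5) and Krt13 (1935.5 and 3698.8). Of the 13 kept, 8 were positive and 5 negative, 1 was at least 2-fold higher and the median was 0.04. The iris and the conjunctiva, which adjoin the cornea, contain vessels as well as these cells. The part of such tissue in the vascular differences was not tested.

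**Figure D2:**
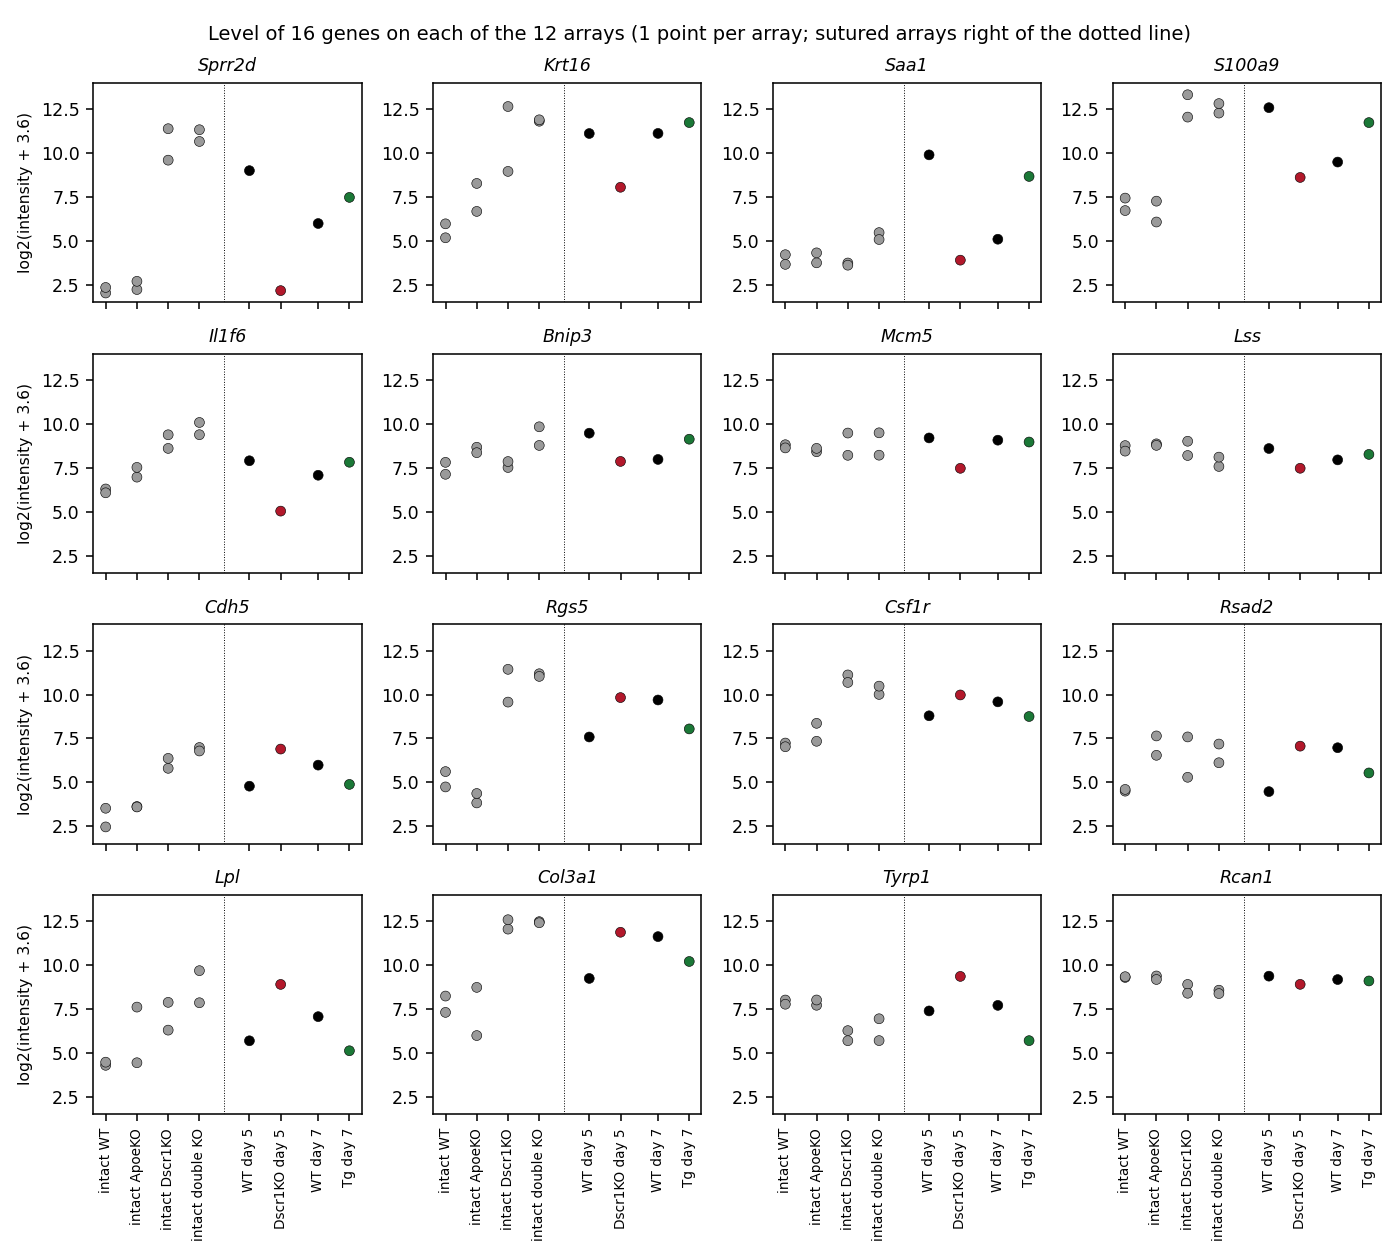
Level of 16 genes on each of the 12 arrays, as log2(intensity + 3.6), with 1 point per array, intact groups in grey, WT sutured corneas in black, the Dscr1KO sutured cornea in red and the Dscr1 Tg sutured cornea in green. Sprr2d, Saa1 and S100a9 are lowest in the Dscr1KO cornea among the sutured arrays, at 0.9, 11.4 and 390.1, while Cdh5, Lpl and Tyrp1 are highest there, at 115.6, 478.0 and 657.1.

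Macrophage genes were also higher. Of 27 kept, 25 had a positive difference. At least 2-fold higher were 13 (48.1%), against 4.12% of all genes, and none was 2-fold lower. Of the 13, 8 were beyond all 4 replicate gaps (11 beyond those of the WT and double null pairs alone). The list's median was 0.98, close to its largest shift between intact replicates of 0.85. Csf1r, the receptor on which macrophages depend, read 440.0 in WT and 1007.0 in Dscr1KO on day 5 and 765.5 and 427.7 in WT and Tg at day 7, a difference of 1.19. Adgre1, the surface marker F4/80, read 54.4 and 152.5 at day 5 and 133.8 and 61.2 at day 7, a difference of 1.43. Gpnmb, a glycoprotein of lipid-laden macrophages and of pigment cells, read 375.0 and 1043.7 at day 5 and 325.4 and 129.5 at day 7, a difference of 1.47. For these 3 genes the Dscr1KO cornea was the highest of the sutured corneas. The complement genes C1qa, C1qb and C1qc, which tissue macrophages make, differed by 1.48, 1.53 and 1.33, and C2 by 1.67. Of all 13 complement genes kept, 5 were at least 2-fold higher and none lower. The 2 macrophage-list genes with a negative difference were Arg1, at 2464.6 in WT and 1798.8 in Dscr1KO, and Cd14, at 297.0 and 239.6.

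Of 19 genes of acute phase and surface defence proteins, 5 were at least 2-fold lower in Dscr1KO and 2 higher, all 7 beyond the replicate gaps, while the list's median of -0.21 lay within its largest replicate shift of 0.67. The 5 were the calprotectin genes S100a8 and S100a9, Lcn2, Saa1 and Saa2. S100a9 read 6191.6 in WT and 390.1 in Dscr1KO on day 5 and 719.5 and 3434.5 in WT and Tg at day 7, a difference of -3.98. Its partner S100a8 read 4596.4 and 642.3 at day 5 and 1085.1 and 2493.2 at day 7, a difference of -2.83. Lcn2, an iron-trapping defence protein of neutrophils and stressed epithelium, read 1116.7 and 179.6 at day 5 and 202.9 and 789.4 at day 7, a difference of -2.61. The order was the same for the 3 genes: WT at day 5 highest, then Tg at day 7, then WT at day 7, with Dscr1KO at day 5 lowest.

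Neutrophil genes were divided, with 11 of 17 negative. At least 2-fold lower were 5, against 1.94% of all genes, and 1 was higher. The median of -0.42 lay within the largest replicate shift of 0.50. Csf3r, the receptor for the neutrophil growth factor, read 62.9 in WT and 70.8 in Dscr1KO, Cxcr2, their chemokine receptor, 13.6 and 17.8, and Ltf, a granule protein that tears also contain, 202.6 and 223.8. The lower ones besides S100a8, S100a9 and Lcn2 were Clec4e and Stfa2l1, at -1.53 and -1.65, and the higher one was the gelatinase gene Mmp9, at 1.04. S100a8, S100a9 and Lcn2 are made by stressed epithelium as well as by neutrophils, and the list of acute phase proteins holds them too.

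Saa1 and Saa2 encode forms of serum amyloid A. Saa1 read 956.7 in WT and 11.4 in Dscr1KO on day 5 and 30.7 and 406.0 in WT and Tg at day 7, a difference of -6.00, and Saa2 read 415.5 and 10.1 and then 10.7 and 191.5, a difference of -4.94. In intact WT corneas Saa1 read 15 and 9.1 and Saa2 3.9 and 2.1, so that Saa1 in the sutured Dscr1KO cornea lay between the intact values and Saa2 lay above them. Saa1 and Saa2 are near-identical copies whose probe sets may share signal. Saa3, the form made by macrophages and fat, differed by only -0.71, at 6354.0 and 3884.9. The lipopolysaccharide-binding protein gene Lbp and the protease inhibitor gene Wfdc18 lay the other way, at 43.8 and 133.3 and at 36.3 and 298.9.

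Cytokines of the interleukin and TNF list were lower, with 9 of 26 at least 2-fold lower, against 1.94% of all genes, and none higher. Of the 9, 5 were beyond all replicate gaps (7 beyond those of the WT and double null pairs). The median was -0.67 (largest replicate shift 0.35). Il1f6 and Il1f9, IL-36 cytokines of epithelium, read 235.4 and 29.1 and 323.2 and 96.1 in WT and Dscr1KO, differences of -2.87 and -1.71. Csf3, the neutrophil growth factor, which stands in none of the lists, read 69.4 and 6.2 at day 5 and 5.7 and 21.4 at day 7. Its difference of -2.90 was beyond the replicate gaps, but its level in Dscr1KO equalled that in the WT cornea of day 7 to within 0.08. Il6, whose difference was within the gaps, also lay beside WT of day 7, at 37.4 in Dscr1KO and 36.8 in WT at day 7. Socs3, the feedback inhibitor that IL-6 and related cytokines induce, read 1409.3 and 511.9 at day 5, a difference of -1.45. Il1b and Il17a differed by -1.25 and -2.46, within the gaps between intact replicates.

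Chemokine genes lay on both sides of 0. Of 15 genes of the CXC list, 9 were positive and the median was 0.05. The receptor gene Cxcr4 was at least 2-fold higher, at 24.3 in WT and 60.5 in Dscr1KO, and 4 ligands were at least 2-fold lower: Cxcl3 at 179.1 in WT and 31.7 in Dscr1KO, Cxcl5 at 652.1 and 167.1, Cxcl2 at 1473.1 and 429.0, and Ppbp at 1264.5 and 610.2. The first 3 attract neutrophils, as does a processed form of the Ppbp product. None of these 5 was beyond all replicate gaps, while 3 of the 4 ligands were beyond those of the WT and double null pairs. Cxcl1, of the same family, did not differ, at 690.3 and 695.5. Of 12 CC chemokine genes, Ccl5, which attracts T cells and monocytes, read 0.9 and 22.0 (2.51) and Ccl8 read 114.2 and 245.4 (1.08), while Ccl3 read 100.0 and 24.8 (-1.87). Leukocyte adhesion molecules had a median of 0.75 but only 1 of 10, the integrin gene Itga4, at 2-fold.

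Interferon-stimulated genes were higher, 12 of 23 (52.2%) by at least 2-fold, against 4.12% of all genes, and none lower. The median of 1.03 was smaller than the shift of this list between the 2 intact Dscr1KO replicates, -1.38, and larger than its shifts in the other 3 pairs, which reached 0.49. Rsad2, which encodes the antiviral enzyme viperin, read 18.6 in WT and 130.1 in Dscr1KO on day 5 and 122.0 and 42.8 in WT and Tg at day 7, a difference of 2.59. Its genomic neighbour Cmpk2, a nucleotide kinase also induced by interferon, read 9.1 and 66.0 at day 5 and 31.8 and 14.1 at day 7, a difference of 2.45. Ifit1, which binds viral RNA, read 78.3 and 381.2 at day 5 and 290.1 and 173.3 at day 7, a difference of 2.23. The WT cornea of day 5 was the lowest of the sutured corneas for all 3. Mx1 and Ifit2 differed by 1.79 and 1.58. Irf1, Oasl1, Ddx58 and Stat2, which also respond to interferon, differed by 0.37, 0.21, 0.09 and -0.13.

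The promoters of the 2 interferon genes that follow are printed to show the element they have in common. They are the 200 bases before the annotated start, 5′ to 3′ on the gene's own strand, from RefSeq (GRCm38.p6), at chr12:26456453-26456652 (minus strand) for Rsad2 and chr19:34640689-34640888 (plus strand) for Ifit1. Capitals mark each match to the core of the interferon-stimulated response element, GAAA, then any 2 bases, then GAAA, searched on both strands.
Rsad2: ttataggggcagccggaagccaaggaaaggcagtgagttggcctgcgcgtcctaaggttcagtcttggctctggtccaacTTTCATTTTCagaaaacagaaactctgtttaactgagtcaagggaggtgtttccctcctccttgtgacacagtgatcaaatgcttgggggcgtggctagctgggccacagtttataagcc
Ifit1: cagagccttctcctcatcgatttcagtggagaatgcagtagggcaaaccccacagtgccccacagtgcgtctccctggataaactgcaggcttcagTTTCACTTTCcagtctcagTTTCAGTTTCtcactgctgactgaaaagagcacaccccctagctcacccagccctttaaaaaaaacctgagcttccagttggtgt
Over the full RefSeq window of 250 bases before to 50 after the start, this motif was present for 12 of the 17 interferon-list genes that have a promoter in the table (70.6%), and for 3.99% of the 27025 genes in it. Among the 335 genes higher and beyond the replicate gaps, 237 had a promoter and 16 of those (6.75%) held the motif. Cmpk2 held none in the 200 bases before its start.

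**Figure D3:**
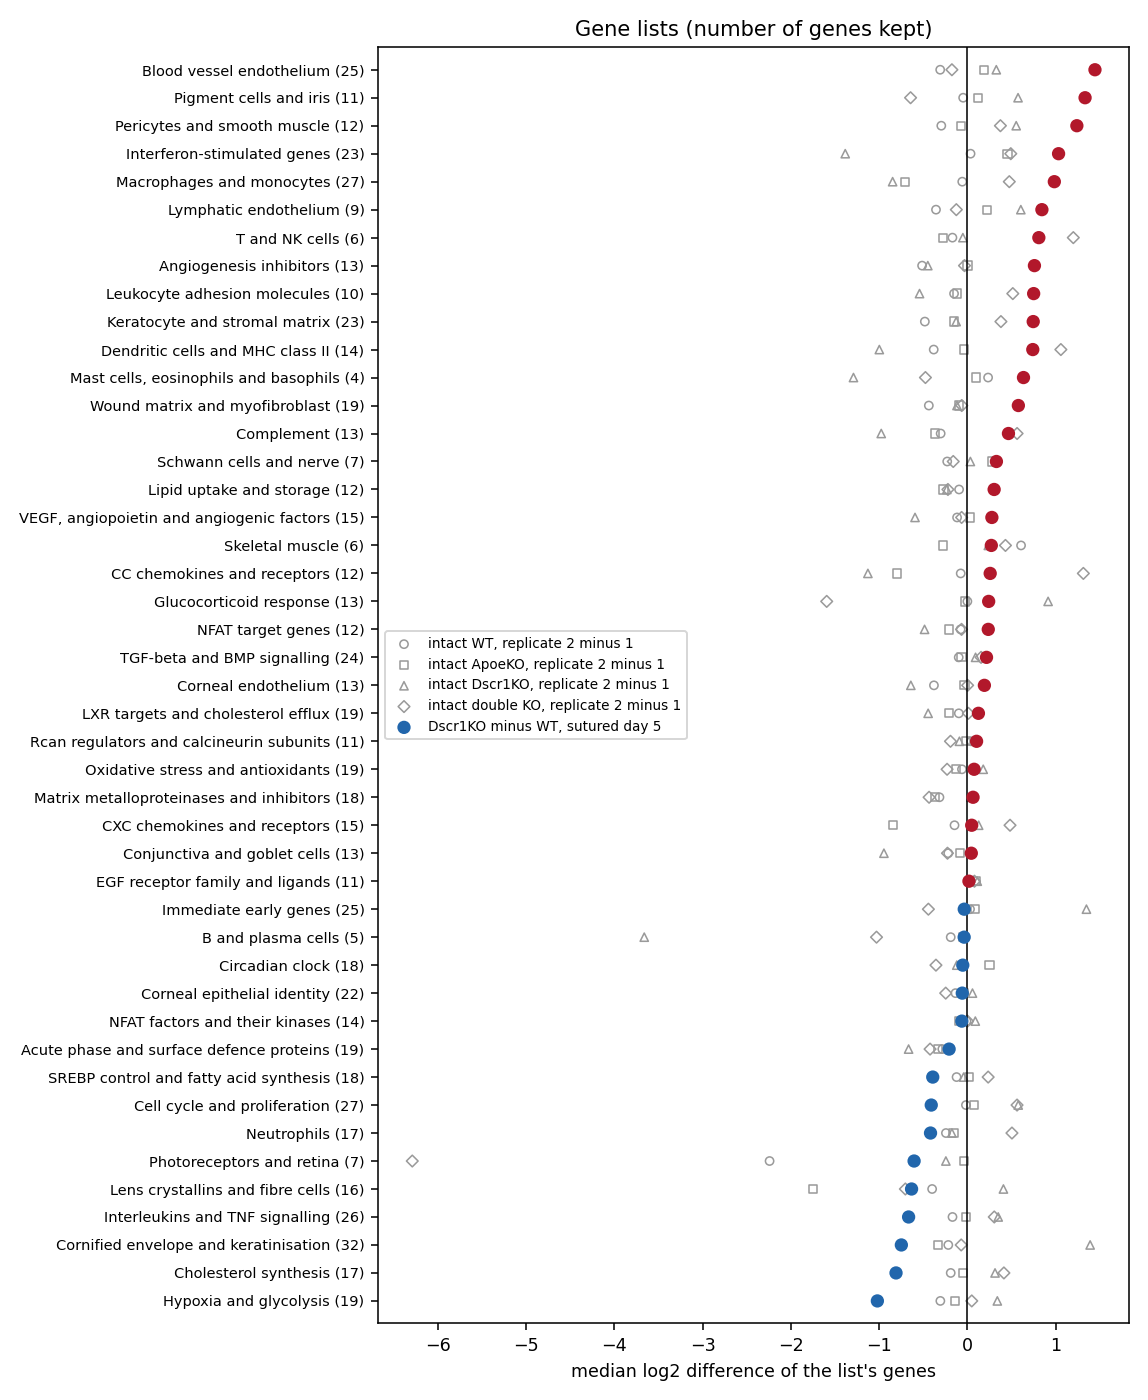
Median log2 difference of gene lists between Dscr1KO and WT at day 5 after suturing (filled points, red above 0 and blue below) and between replicates 2 and 1 of each of the 4 intact groups (open points), with the number of genes kept in brackets. Blood vessel endothelium, pigment cells and pericytes lie furthest right, at 1.44, 1.33 and 1.24, and hypoxia and glycolysis, cholesterol synthesis and keratinisation furthest left, at -1.02, -0.81 and -0.75.

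Genes of the cornified envelope and keratinisation were lower in Dscr1KO, though unevenly. Of 32 kept, 12 (37.5%) were at least 2-fold lower against 1.94% of all genes, 1 was higher, and 8 of the 12 were beyond all 4 replicate gaps (all 12 beyond those of the WT and double null pairs). The median was -0.75, smaller than the shift of 1.39 between the 2 intact Dscr1KO replicates and larger than those of the other 3 pairs, which reached 0.34.

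Sprr2d, Sprr2f and Sprr2h encode small proline-rich proteins that are cross-linked into the envelope of stressed epithelium. Sprr2d read 511.5 in WT and 0.9 in Dscr1KO on day 5 and 60.2 and 175.5 in WT and Tg at day 7, a difference of -6.84. Sprr2f read 473.4 and 8.1 at day 5 and 97.9 and 89.6 at day 7, a difference of -5.35. Sprr2h read 248.0 and 5.6 at day 5 and 13.9 and 89.7 at day 7, a difference of -4.77. All 3 were lowest in the Dscr1KO cornea among the sutured ones, near the levels of intact WT corneas, where Sprr2d read 0.5 and 1.5, Sprr2f 3.6 and 1.5 and Sprr2h 5.2 and 8.3. The paralogs are similar in sequence, so their probe sets may share signal. Other envelope genes were lower by less, Sprr1b, Sprr3 and Flg within the replicate gaps: Dmkn (560.4 and 55.7), Cnfn (278.1 and 31.8), Sprr1b (-3.44), Sbsn (-2.36), Sprr1a (-2.31), Sprr3 (-1.45) and the filaggrin gene Flg (-1.21).

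The wound keratins divided within one family. Krt16 read 2230.0 in WT and 263.6 in Dscr1KO on day 5 and 2239.7 and 3436.5 at day 7, a difference of -3.06, and Krt17 differed by -2.12. Krt6a, the partner of Krt16, read 5580.1 and 5640.3, and Krt6b read 7064.5 and 7439.3. The Krt16 difference was within the largest gap between intact replicates, 3.70. The keratins of dry skin, Krt1 and Krt10, differed by -0.12 and 0.37, and loricrin (Lor) by -0.41.

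Identity genes of corneal epithelium did not share the direction. Of 22 kept, 1 was at least 2-fold higher and 1 lower, and the median was -0.06. Pax6, the regulator of corneal fate, read 1820.8 and 2670.1, Aldh3a1, the corneal crystallin enzyme, 6190.0 and 6450.4, and Klf4, a factor of surface epithelium, 6371.3 and 5831.4. The lower gene was Gjb2, a gap junction gene of wounded epithelium, at 1028.8 and 467.6 (-1.13).

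The 200 bases before the start of the 3 Sprr2 genes are shown side by side. They lie within one cluster, at chr3:92338940-92339139 (plus strand) for Sprr2d, chr3:92364987-92365186 (plus strand) for Sprr2f and chr3:92385485-92385684 (plus strand) for Sprr2h (RefSeq, GRCm38.p6), and capitals mark TGANTCA, the AP-1 motif, which reads the same on both strands.
Sprr2d: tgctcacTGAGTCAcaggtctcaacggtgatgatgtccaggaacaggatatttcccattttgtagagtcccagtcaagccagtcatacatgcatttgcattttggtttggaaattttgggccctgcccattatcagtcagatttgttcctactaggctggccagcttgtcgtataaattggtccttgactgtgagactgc
Sprr2f: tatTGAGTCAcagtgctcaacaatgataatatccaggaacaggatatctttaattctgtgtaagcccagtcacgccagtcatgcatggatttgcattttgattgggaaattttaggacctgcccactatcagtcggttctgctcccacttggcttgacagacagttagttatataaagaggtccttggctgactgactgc
Sprr2h: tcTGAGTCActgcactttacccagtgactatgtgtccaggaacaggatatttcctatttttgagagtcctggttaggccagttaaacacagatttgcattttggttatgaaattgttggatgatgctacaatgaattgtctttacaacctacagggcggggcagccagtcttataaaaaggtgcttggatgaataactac
The motif stood at positions -193, -197 and -198 from the start in Sprr2d, Sprr2f and Sprr2h. In the full RefSeq window it was present for 13 of 26 keratinisation genes with a promoter and for 8.97% of all genes in the table.

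Every gene of the hypoxia and glycolysis list had a negative difference. Of 19 kept, 10 (52.6%) were at least 2-fold lower against 1.94% of all genes, all 10 were beyond the replicate gaps, and the median was -1.02 with a largest replicate shift of 0.34. These genes are induced by the oxygen-sensing factor HIF-1 and serve glucose uptake, glycolysis and the response to low oxygen. Ankrd37, a HIF-1 target, read 36.6 in WT and 3.1 in Dscr1KO on day 5 and 12.9 and 8.3 at day 7, a difference of -2.58. Bnip3, which directs mitochondria to degradation, read 707.3 and 229.2 at day 5 and 248.3 and 556.7 at day 7, a difference of -1.61. Ero1a, an oxidase of the secretory pathway, read 440.1 and 162.8 at day 5 and 173.5 and 235.5 at day 7, a difference of -1.41. The WT cornea of day 5 was the highest and the Dscr1KO cornea the lowest in each case, but for Bnip3 and Ero1a the Dscr1KO level lay close to that of WT on day 7. The glycolytic genes Hk2, Pkm and Pfkp and the glucose transporter Slc2a1 differed by -1.43, -1.14, -1.13 and -1.09, and Ldha and Aldoa by -0.60 and -0.72. Vegfa and Adm, described above, belong to this list too. Hif1a itself read 2599.0 and 2310.7, a difference of -0.17.

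Promoters of the 3 genes just named are shown for the element ACGTG, the core of hypoxia response elements, which was searched on both strands after the list's values had been seen. The windows lie at chr8:45999851-46000050 (minus strand) for Ankrd37, chr7:138909507-138909706 (minus strand) for Bnip3 and chr14:45318573-45318772 (minus strand) for Ero1a (RefSeq, GRCm38.p6), 200 bases before the start, with matches in capitals. In Bnip3 the matches on the 2 strands overlap and together spell CACGTG, which is also the E-box.
Ankrd37: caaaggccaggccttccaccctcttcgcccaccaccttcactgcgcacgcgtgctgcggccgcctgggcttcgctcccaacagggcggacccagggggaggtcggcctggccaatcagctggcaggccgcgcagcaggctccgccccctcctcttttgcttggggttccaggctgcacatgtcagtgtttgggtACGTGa
Bnip3: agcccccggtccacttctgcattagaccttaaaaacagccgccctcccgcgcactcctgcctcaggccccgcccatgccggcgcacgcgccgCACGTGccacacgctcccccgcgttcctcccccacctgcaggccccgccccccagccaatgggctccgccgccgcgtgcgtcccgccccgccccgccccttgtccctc
Ero1a: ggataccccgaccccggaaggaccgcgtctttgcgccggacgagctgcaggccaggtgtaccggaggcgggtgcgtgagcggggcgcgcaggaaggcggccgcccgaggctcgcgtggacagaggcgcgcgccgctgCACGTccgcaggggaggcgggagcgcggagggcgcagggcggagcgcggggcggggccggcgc
Adm and Pdk1, also of this list, held no match in the 200 bases before their starts. In the full window ACGTG was present for 15 of 18 hypoxia genes with a promoter (83.3%), for 21.8% of all genes in the table and for 28.8% of the kept genes that have a promoter there. Of the 152 genes lower and beyond the replicate gaps, 128 had a promoter and 35 (27.3%) held it. The NFAT core GGAAA, searched on both strands, was present for 64.4% of all genes, for 70.9% of the higher set and for 73.4% of the lower set.

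In the list of 27 cell cycle genes 5 were at least 2-fold lower (18.5%), against 1.94% of all genes, and none higher. The median was -0.41 against a largest replicate shift of 0.57. All 5 serve DNA replication, a grouping made after their values were seen. Of the replicative helicase MCM, Mcm5 read 585.4 in WT and 173.8 in Dscr1KO on day 5 and 535.5 and 497.5 at day 7, a difference of -1.73, and Mcm3 read 293.0 and 95.1 at day 5 and 301.5 and 293.4 at day 7, a difference of -1.59. Mcm2 and Mcm6 differed by -1.38 and -1.11, and Rrm2, which makes deoxynucleotides, by -1.51. In each of these 5 genes the Dscr1KO cornea was below the other 3 sutured corneas. The mitotic genes Ccnb2 and Aurka read 187.6 and 197.1 and 49.9 and 51.0, and Mki67, the proliferation marker, read 678.5 and 602.7. Of the 5 replication genes, Mcm6 and Rrm2 were not beyond all replicate gaps, and 4 of the 5 were beyond those of the WT and double null pairs.

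**Figure D4:**
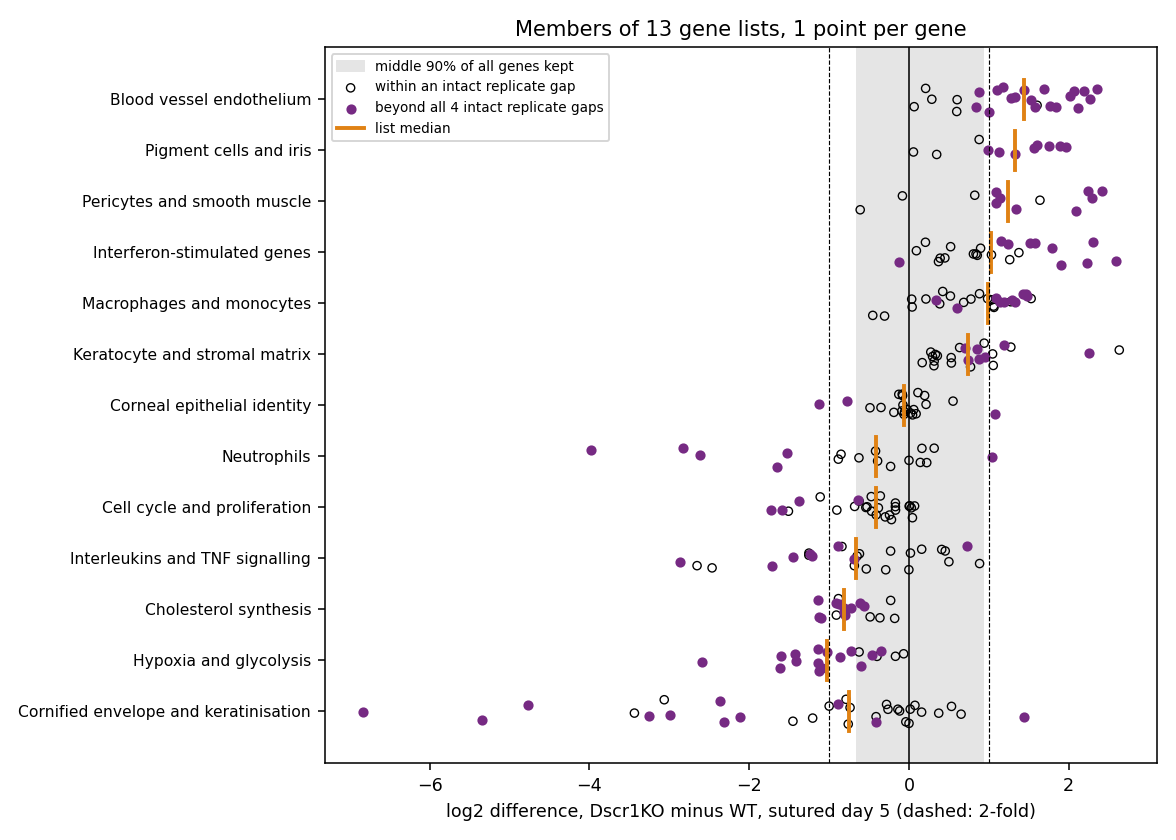
Log2 difference between Dscr1KO and WT at day 5 after suturing for each gene kept in 13 lists, with 1 point per gene, purple where the difference was beyond all 4 intact replicate gaps, an orange line at the list's median and a grey band over the middle 90% of all genes kept. All 19 points of the hypoxia list and all 17 of the cholesterol list lie left of 0, and all 25 of the blood vessel list lie right of it.

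By its title the study is about cholesterol metabolism in the cornea without Dscr1, and genes of cholesterol synthesis were lower here. All 17 kept had a negative difference, with a median of -0.81 against a largest replicate shift of 0.41. Only 3 (17.6%) reached 2-fold, against 1.94% of all genes, all 3 beyond the replicate gaps. Cyp51, the lanosterol demethylase, read 1077.0 in WT and 498.3 in Dscr1KO on day 5 and 616.7 and 756.3 at day 7, a difference of -1.11. Lss, which closes the sterol rings, read 384.1 and 174.1 at day 5 and 243.8 and 303.8 at day 7, a difference of -1.13. Mvd, of the mevalonate branch, read 132.2 and 58.3 at day 5 and 93.4 and 112.7 at day 7, also -1.13. The Dscr1KO cornea was the lowest of the 4 for all 3. Sqle, the squalene epoxidase, differed by -0.56 and Hmgcs1, the synthase of the first committed intermediate, by -0.18. Srebf2, the transcription factor that drives the pathway, read 627.7 and 381.4 (-0.71). In fatty acid synthesis, Scd1, the stearoyl-CoA desaturase, read 910.3 and 288.6 (-1.65) as the one gene of 18 at 2-fold.

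Lipid uptake and storage had 4 of 12 genes at least 2-fold higher, against 4.12% of all genes, and none lower. Of the 4, 2 were beyond the replicate gaps. Lpl read 48.3 in WT and 478.0 in Dscr1KO on day 5 and 131.1 and 31.4 in WT and Tg at day 7, a difference of 3.21 against a largest replicate gap of 3.17. Cd36, a fatty acid and lipoprotein receptor, read 16.8 and 123.0 at day 5 and 37.7 and 20.6 at day 7, a difference of 2.63 that was within the replicate gaps. Plin2, which coats lipid droplets, read 151.8 and 316.7 at day 5 and 218.5 and 156.5 at day 7. The Dscr1KO cornea was the highest of the sutured corneas for all 3. Fabp5, of the same list, differed by -0.30. The targets of the sterol receptor LXR and genes of cholesterol efflux were divided, 10 of 19 positive and 9 negative, with a median of 0.12 inside the largest replicate shift of 0.45. In that list 3 were at least 2-fold higher and 1 lower: Abca1, the cholesterol exporter, read 499.0 and 1111.8 (1.15), the cholesterol ester hydrolase gene Nceh1 30.5 and 100.3 (1.61), the phospholipid transfer protein gene Pltp 186.7 and 378.6 (1.01), and the oxysterol hydroxylase gene Cyp7b1 130.7 and 59.8 (-1.08). Abcg1, a second exporter, differed by 0.31. Macrophages, vessels and fat cells express several of these genes, and their part in the difference was not tested.

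Stromal matrix genes were higher to a smaller extent. All 23 genes of keratocytes and stroma had a positive difference with a median of 0.74 (largest replicate shift 0.48). Of them 6 were at least 2-fold higher, against 4.12% of all genes. Col1a2 and the proteoglycan genes Lum and Dcn, abundant in corneal stroma, differed by 0.32, 0.27 and 0.17. Col3a1, the collagen of scars and vessel walls, read 606.1 in WT and 3775.3 in Dscr1KO on day 5 and 3177.8 and 1187.4 at day 7, a difference of 2.63 within the replicate gap of 2.75, and Aspn, a small proteoglycan, read 43.6 and 222.2 (2.26). Of 19 genes of wound matrix and myofibroblasts, 5 were at least 2-fold higher and none lower. Postn, which encodes periostin, read 253.1 and 1071.7 at day 5 and 876.3 and 240.6 at day 7 (2.07), and the basement membrane genes Col4a1 and Col4a2 differed by 1.62 and 1.37. For Postn as for Col3a1, WT at day 5 and Tg at day 7 were low and WT at day 7 and Dscr1KO at day 5 were high.

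Several of the 30 named genes belong to none of these lists. Alox15, a lipid-oxidising enzyme of macrophages and eosinophils, read 23.8 in WT and 130.4 in Dscr1KO on day 5 and 57.5 and 13.2 at day 7, a difference of 2.29. Rspo2, a secreted enhancer of Wnt signalling, read 6.3 and 45.5 at day 5 and 15.4 and 7.4 at day 7, and Ctla2a, a protease inhibitor, read 49.7 and 270.5 at day 5. The Dscr1KO cornea was highest in these. On the lower side B3galt5, a glycosyltransferase gene, read 316.9 and 26.6 at day 5 and 137.1 and 398.2 at day 7, and its difference of -3.41 was -1.68 with the mean of its 4 probe sets. Nppb, which encodes the natriuretic peptide BNP, read 177.9 and 14.4 at day 5 and 31.2 and 110.2 at day 7. Hs3st3a1 and Mab21l3 differed by 2.26 and -3.47.

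The series holds 2 further comparisons that share no array with this one. In intact corneas, the Dscr1KO exceeded WT by at least 2-fold for 1315 genes (10.3%) and fell short of it for 722 (5.68%), in groups of 2 arrays. Across 12711 genes the sutured and intact differences had a Pearson correlation of 0.05 and a Spearman correlation of 0.01, or 0.16 each with the intact Dscr1KO replicate 1 alone. Xist was at 14.9 and 8.9 on the intact WT arrays and at 4104.0 and 5385.2 on the intact Dscr1KO arrays, and the part of sex in the intact difference was not tested. The correlations are descriptions, since genes are not independent and all arrays share one platform. Of the 524 genes higher in the sutured Dscr1KO, 275 (52.5%) were also at least 2-fold higher in the intact Dscr1KO, 20.9% of the 1315 found there. Of the 247 lower in the sutured Dscr1KO, 91 (36.8%) were at least 2-fold higher in the intact Dscr1KO and 13 (5.26%) lower. With replicate 1 alone, which called 10.1% of all genes higher and 2.89% lower, the shares were 55.0%, 30.4% and 6.88%.

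The lists show which genes these were. Blood vessel endothelium was higher in both settings (1.44 sutured, 2.53 intact), as were macrophages (0.98 and 2.73). Keratinisation genes were lower in the sutured Dscr1KO and far higher in the intact one, with medians of -0.75 and 5.38 and 26 of 32 genes at least 2-fold higher in the intact comparison. Sprr2d, for example, was at 0.5 and 1.5 on the intact WT arrays and at 775.8 and 2695.9 on the intact Dscr1KO arrays. The interleukin list (-0.67 and 1.81) and the pigment list (1.33 and -0.71) also lay on opposite sides of 0. The hypoxia and cholesterol lists, at -1.02 and -0.81 in the sutured corneas, had intact medians of 0.25 and -0.14.

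At day 7 after suturing, the Dscr1 Tg cornea was compared with WT, again with 1 array each. There 96 genes (0.755%) were at least 2-fold higher and 442 (3.48%) lower. Across genes this difference and that of the Dscr1KO at day 5 had a Pearson correlation of -0.44 and a Spearman correlation of -0.43. List medians lay on opposite sides of 0 for blood vessel endothelium (1.44 in Dscr1KO, -0.87 in Tg), pigment cells (1.33 and -0.83), stroma (0.74 and -0.79), hypoxia (-1.02 and 0.24) and keratinisation (-0.75 and 0.50). The lens list stood apart from this, at -0.63 in Dscr1KO and -2.38 in Tg. The summed lens signal was 10005.5 in the WT cornea of day 7 against 1694.0 and 1497.8 in the WT and Dscr1KO corneas of day 5. The 2 comparisons differ in day as well as in genotype, and these cannot be told apart.

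**Figure D5:**
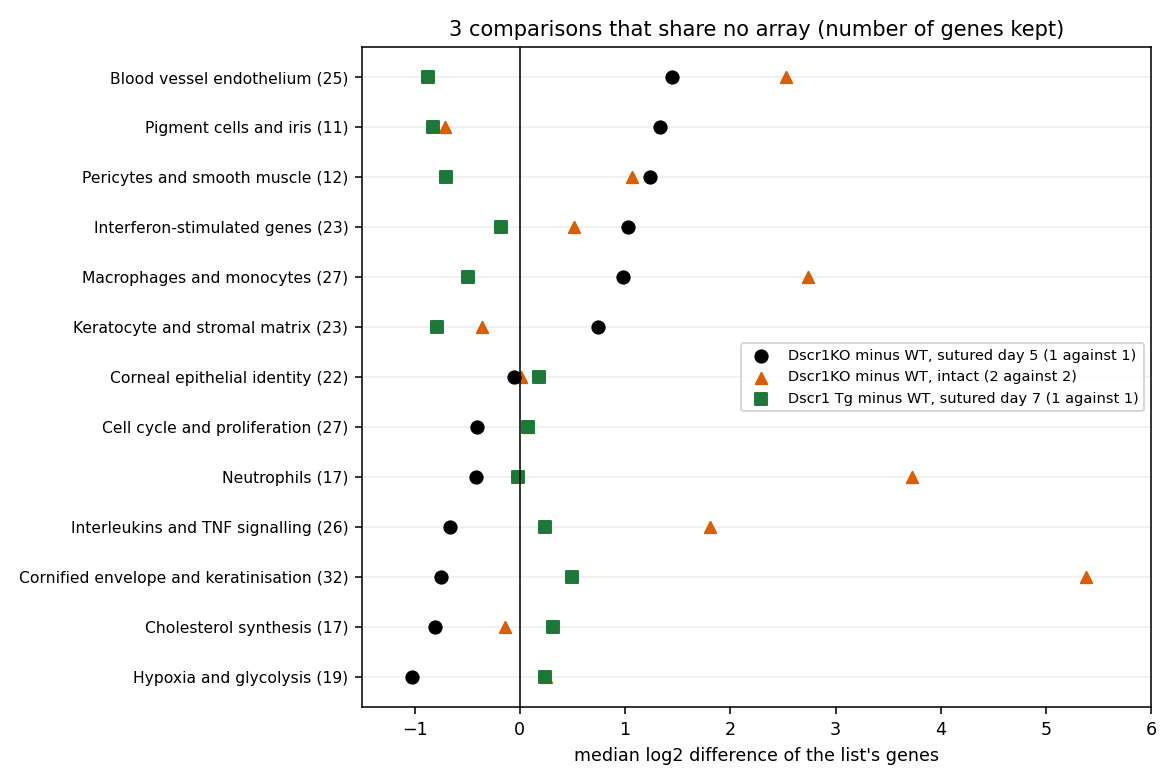
Median log2 difference of 13 gene lists in 3 comparisons that share no array: Dscr1KO minus WT in sutured corneas at day 5 (circles), Dscr1KO minus WT in intact corneas (triangles) and Dscr1 Tg minus WT in sutured corneas at day 7 (squares), with the number of genes kept in brackets. Keratinisation lies at -0.75, 5.38 and 0.50 in these, and blood vessel endothelium at 1.44, 2.53 and -0.87.

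Because 1 WT array stands behind every difference above, the WT cornea of day 7 was put in its place. This second comparison shares the Dscr1KO array, so the 2 sets of values are only given side by side. It had 313 genes (2.46%) at least 2-fold higher and 239 (1.88%) lower, of which 108 and 100 were also among the 524 and the 247. The list medians against WT at day 5 and at day 7 were 1.44 and 0.35 for blood vessel endothelium, 1.24 and 0.05 for pericytes, 0.98 and 0.34 for macrophages, 1.03 and 0.39 for interferon-stimulated genes, -0.75 and 0.00 for keratinisation, -1.02 and -0.39 for hypoxia, -0.81 and -0.38 for cholesterol synthesis, and 1.33 and 0.94 for pigment cells. All 8 medians were nearer to 0 against WT at day 7, but these lists were picked among those far from 0 against WT at day 5. Some other lists moved away from 0. Medians went from -0.42 to -0.53 for neutrophils, 0.04 to 0.51 for conjunctiva and -0.63 to -4.38 for lens. The keratinisation median of 0.00 stands over genes on both sides, 4 at least 2-fold higher and 7 lower against WT at day 7, with Sprr2d at -3.83. Among the named genes, Lpl, Wfdc18, Ctla2a, Clec14a, Rspo2, Ifi27l2a, Alox15, Hs3st3a1 and Mmrn1 were at least 2-fold higher than both WT corneas. Sprr2d, Sprr2f, Saa1, B3galt5 and Il1f6 were at least 2-fold lower than both. The rest of the named genes were within 2-fold of WT at day 7. Nearest to it were Rsad2, Mcam, Saa2, Csf3 and Lcn2, with differences of 0.09, -0.08, -0.06, 0.08 and -0.17. The replication genes Mcm2, Mcm3 and Mcm5, low in Dscr1KO against both, read 155.0, 301.5 and 535.5 in WT at day 7.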

How the data were processed

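Affymetrix expression arrays were hybridised with biotin-labelled cRNA made from 100 ng of total RNA of whole cornea, per the labels' protocols. The deposited values are linear intensities per probe set, scaled by the authors so that each array's 2% trimmed mean is 100, as their values show; the software (not given in the sources used here) stays unknown. Of 45101 probe sets, 34958 had 1 gene symbol, 932 several and 9211 none in the platform annotation, and probe sets without a single symbol were left unnamed.

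The brightest probe set stood for each gene, log2(intensity + 3.6) was taken, and genes with a mean over all 12 arrays at or above the 40th percentile were kept, 12711 of 18194. The difference of the 2 arrays was taken without a test, since each group has 1 array. Named genes were the 15 furthest on each side among those at least 2-fold apart, beyond all 4 intact replicate gaps and with the brighter array above the 60th percentile (32.9). Of each list, up to 4 members with the largest differences were named, and those that show it to be divided; further members were added after their values were seen. The members and lists were chosen with earlier results of these data known. Lists overlap: calprotectin genes, for example, stand in 2 of them. The calculation was run on simulated arrays with a small spread and known shifts well past the threshold. This checks the code, and not how often real corneas of one genotype differ. The number of arrays limits the precision. Promoters were RefSeq (GRCm38.p6) windows of 300 bases. Python 3.11.15, pandas 2.3.3, numpy 2.4.6, scipy 1.17.1 and matplotlib 3.10.9 were used. Alternatives covered the pseudocount, filter, scaling, probe set rule, fold, replicate yardstick and WT array.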

Additional observations from a re-analysis of the deposited data

Results flagged for a closer look

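The sutured and the intact difference from WT had opposite signs for 15 of the 30 named genes and for 16 of 47 list medians. Given here are the 13 genes at least 2-fold apart both ways whose intact Dscr1KO and WT arrays do not overlap, and the 3 lists with medians of at least 0.5 in size on both sides and the same sign for every pair of intact arrays. The difference between the sutured and the intact comparison was not tested, and the sutured side has 1 array per genotype.

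Among keratinisation genes, Sprr2d differed by -6.84 in sutured and 8.31 in intact corneas, Sprr2f by -5.35 and 8.32, and Sprr2h by -4.77 and 6.36. Dmkn, which encodes dermokine, differed by -3.25 and 8.05, and Cnfn, which encodes cornifelin, by -2.99 and 4.90. The list median was -0.75 in sutured and 5.38 in intact corneas.

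Inflammatory genes gave the same reversal. S100a9 differed by -3.98 in sutured and 5.61 in intact corneas, S100a8 by -2.83 and 7.86, and Lcn2 by -2.61 and 3.89. The cytokine genes Csf3 and Il1f6 differed by -2.90 and -2.87 in sutured and by 3.76 and 2.81 in intact corneas. The interleukin and TNF list had medians of -0.67 and 1.81.

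Mab21l3 differed by -3.47 and 2.62, B3galt5 by -3.41 and 1.35, and Nppb by -3.33 and 1.10. The pigment list was the one list of the 3 that lay higher in the sutured cornea, with medians of 1.33 and -0.71.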

How the results depend on the processing

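The reported counts were 524 genes higher, 247 lower, 335 and 152 beyond the replicate gaps, and 631 outside the other 3 sutured arrays. In the same order they were 258, 152, 166, 95 and 348 with the filter at the 60th percentile, 973, 608, 608, 367 and 1238 with no filter, 1630, 770, 814, 365 and 1890 at 1.5-fold, and 40, 37, 36, 27 and 67 at 4-fold. With the pseudocount at the 40th percentile 313 genes were higher, 213 of them beyond the gaps, and 403 lay outside the other arrays. Against WT at day 7 there were 313 higher, sharing 108 of the 524, and against the mean of both WT days 273, sharing 205. Mcam and Csf3 changed sign against WT at day 7, at -0.076 and 0.076, and 26 of the other 30 genes and 29 of 47 list medians moved by more than the replicate spread; the cause was not tested. Quantile normalization (401 higher, 275 lower), equal medians (390, 319), the mean of all probe sets (358, 188) and the pseudocount at the 5th percentile (660, 305) left the counts within 1.5 times. So did leaving out replicate pairs, with 339 to 412 higher and 153 to 219 lower beyond the remaining gaps. With the intact WT pair alone, an alternative chosen after seeing the data like the one that leaves out 2 pairs, 507 and 241 were beyond it. No paired analysis was possible because the result comes from no test. Genes near background have understated differences on this scale.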

Other observations

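Growth factor and immune genes outside the groups described above also stood apart between the sutured Dscr1KO and WT corneas at day 5, as values with no test. Nrg1, a ligand of the EGF receptor family, read 65.3 in WT and 27.5 in Dscr1KO, a difference of -1.15, and Epgn, another, read 418.1 and 136.5, a difference of -1.59. Tgfb3 read 45.2 and 131.8 (1.47) and Bmp4 read 12.7 and 35.7 (1.27). All 4 were outside the range of the other 3 sutured corneas, and Epgn alone of them was within the gaps between intact replicates. Slc16a1, a lactate transporter, read 358.9 and 144.8 (-1.29).

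Of 14 genes of dendritic cells and MHC class II, 12 had a positive difference, with a median of 0.74 inside the largest replicate shift of 1.06. H2-Aa, a class II molecule, read 436.4 and 886.3 (1.02) and Cd83, a marker of mature dendritic cells, read 23.0 and 64.8 (1.36), both within the replicate gaps. H2-DMb2 differed by -1.01, beyond them. S100b, a Schwann cell gene, read 32.3 and 113.8 (1.71). The T cell gene Cd3e and the B cell gene Cd79a stayed near background, at 0.8 and 2.1 and at 4.4 and 0.8.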
